A study of Mus musculus with 2 samples.

Results

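Flt3, Dntt, Satb1, Notch1, Lsp1, Il7r, Ccr9 and Rag1 are genes that early blood progenitors switch on as they lean toward the lymphoid lineage. These 8 genes, chosen by name from the 32285 genes of the count matrices and found in both of them, were followed in LSK cells (lineage-negative, Sca-1 and c-Kit positive), the bone marrow fraction of stem cells and the earliest progenitors. Their transcripts were counted in 5363 cells of the miR-142 WT CML library and 5458 cells of the miR-142 KO CML library, which were the barcodes with at least 8000 unique molecular identifiers (UMIs, 1 per captured transcript) and under 10% mitochondrial UMIs.

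The donors of both libraries were B6 mice, 8 to 10 weeks old, with SCLtTA and BCR-ABL, a tet-off pair in which the SCL promoter drives BCR-ABL once tetracycline is withdrawn, and BCR-ABL had been induced in both. The miR-142 WT CML mice had both miR-142 alleles, whereas the miR-142 KO CML mice lacked both. How many mice were pooled, if any, was not stated, and with 1 library per group no test was run. Every interval below is a 95% interval for counting error only and says nothing about the spread between mice.

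Lymphoid priming starts within the LSK fraction, where a subset with the receptor tyrosine kinase FLT3 begins to transcribe lymphoid genes at a low level before any lineage is fixed. The interleukin-7 receptor then supports early lymphoid precursors, NOTCH1 directs progenitors toward the T lineage in the thymus, CCR9 guides cells to the thymus and gut, and the RAG proteins with terminal transferase assemble and diversify antigen receptor genes. Il7r and Ccr9 are also transcribed by innate lymphoid cells and their precursors, so these receptors mark more than 1 kind of lymphoid cell.

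The microRNA missing from the KO mice is shown first, since its seed (bases 2 to 8, in capitals) sets which letters a target would hold. The mature sequences are those of RefSeq on GRCm38.p6, from chr11:87756867-87756887 for the 5p arm and chr11:87756903-87756925 for the 3p arm, both on the plus strand.
mmu-miR-142a-5p: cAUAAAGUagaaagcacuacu
mmu-miR-142a-3p: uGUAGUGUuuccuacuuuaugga
The reverse complements of these seeds, ACTTTAT and ACACTAC, were sought on the transcript strand of the longest annotated 3′ untranslated region (UTR) of each gene. Neither was found in Flt3, Dntt, Satb1, Notch1, Lsp1 or Il7r. Ccr9 held 1 match to the 3p seed, and Rag1 held 1 match to each seed. The matches are printed in capitals with the bases around them.
Ccr9, 3p match, chr9:123782993-123783017, plus strand: gagtttgggaACACTACaggaaaca
Rag1, 5p match, chr2:101638516-101638540, minus strand: gttgtattttACTTTATtattattg
Rag1, 3p match, chr2:101640307-101640331, minus strand: tctacactaaACACTACagtttata
Over the 21173 genes with an annotated 3′ UTR of any length, 14.7% held ACTTTAT and 6.49% held ACACTAC. A match is a run of letters and not a shown target, and its absence from these windows says nothing about the microRNA's reach.

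Depth and identity were checked once for the series. The median cell held 19443 UMIs in WT against 24181.5 UMIs in KO, and 4 cell barcodes occurred in both libraries. Kit, Cd34 and Ly6a (which encodes Sca-1) were present at 68.3 to 255 counts per 1000000 (CPM, the UMIs of a gene in every 1000000 UMIs of the cells concerned). Mir142hg, the host transcript of miR-142, had 1260 UMIs in WT and 20 in KO. A list of 6 T cell markers summed to 6.46 CPM in WT and 4.66 CPM in KO, with Cd3e at 0 and 2 UMIs, and a list of 5 B cell markers to 39.8 and 34.7 CPM, with Pax5 at 0 and 2 UMIs but Cd79b at 36.0 and 34.6 CPM. The WT library also held 1040 CPM of Ighm, beside 36 antibody-secreting cells. The composition of the libraries differed widely, and the cells were therefore split by summed marker scores that used none of the 8 genes. Cells with high Elane, Mpo, Prtn3 and Ctsg (the granule group) made up 17.1% of WT and 52.4% of KO cells. Cells with high stem cell genes such as Hlf and Mecom (the HSC group) made up 28.8% and 5.88%.

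Taken over all cells, 6 of the 8 genes were lower in KO and 2 were higher, with Rag1 alone within its counting error. The lowest ratio among the 7 genes with 40 or more UMIs in each library was that of Dntt, at 4.79-fold lower in KO, and the highest was that of Ccr9, at 9.79-fold higher. A mean of 10 CPM over both libraries was reached by 5 of the 8 genes (Flt3, Dntt, Satb1, Notch1 and Lsp1), while Il7r, Ccr9 and Rag1 stayed under it. Of these 5, 4 were at least 1.5-fold lower in KO and 0 were at least 1.5-fold higher, against 4.86% of all 7483 genes past that minimum lower and 2.78% higher. The median log2 ratio was -0.72 over the 5 genes and -0.08 over all 7483. Scaling by median-of-ratios size factors, which takes out that shift, left the members at 4 lower and 0 higher, against 3.58% of genes lower and 3.63% higher. With no CPM minimum 5 of the 8 were lower and 2 (Il7r and Ccr9) were higher, against 28.5% lower and 12.1% higher of 20793 genes.

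**Figure D1:**
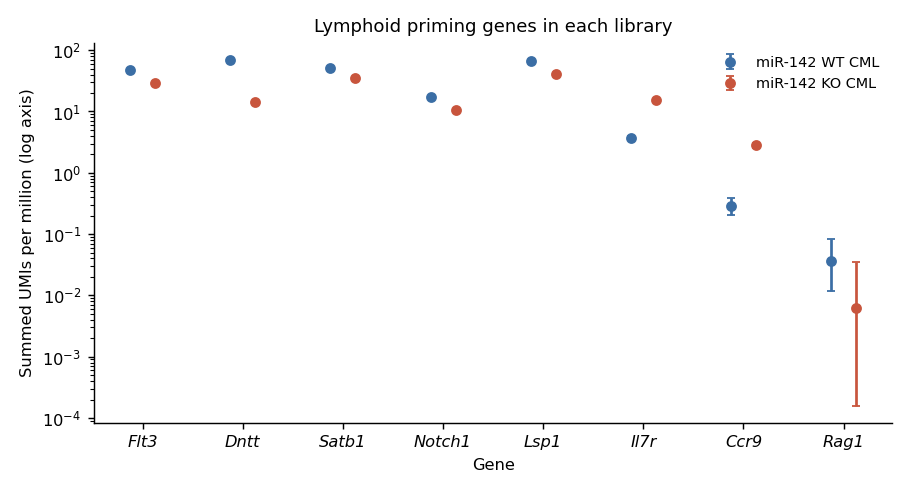
Level of each of the 8 genes (x axis) in WT and KO cells, as summed CPM on a log axis, with exact Poisson 95% intervals that are often smaller than the points. The blue WT points lie above the red KO points for Flt3, Dntt, Satb1, Notch1, Lsp1 and Rag1, and below them for Il7r and Ccr9.

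Flt3 (ENSMUSG00000042817, chr5:147330741-147400489), which encodes the cytokine receptor that separates multipotent progenitors with lymphoid potential from stem cells, stood at 48.4 CPM (47.2 to 49.5) in WT against 29.3 CPM (28.5 to 30.1) in KO. The log2 ratio of KO over WT was -0.72 (-0.78 to -0.67). With each cell randomly reduced to 8000 UMIs (thinned), so that depth was equal, 30.8% (29.6 to 32.0) of WT cells and 23.7% (22.5 to 24.8) of KO cells held a Flt3 UMI. Without thinning the shares were 52.5% and 46.0%. Both measures were lower in KO, by more than their intervals.

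Il7r (ENSMUSG00000003882, chr15:9505788-9530176), the alpha chain of the interleukin-7 receptor, went the other way. It had 3.68 CPM (3.36 to 4.01) in WT against 15.6 CPM (15.0 to 16.2) in KO, a log2 ratio of 2.08 (1.95 to 2.22). It was detected in 1.94% (1.59 to 2.34) of WT and 4.80% (4.25 to 5.40) of KO cells after thinning. Ccr9 (ENSMUSG00000029530, chr9:123678439-123784330), the chemokine receptor for the thymic and gut ligand CCL25, was rarer. It had 40 UMIs in WT against 449 UMIs in KO, or 0.29 CPM and 2.83 CPM, a log2 ratio of 3.29 (2.82 to 3.796). Ccr9 was detected in 13 WT and 79 KO cells after thinning.

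Notch1 (ENSMUSG00000026923, chr2:26457903-26516663), the receptor that directs T lineage entry, had 17.5 CPM (16.8 to 18.2) in WT against 10.5 CPM (10.0 to 11.02) in KO. The log2 ratio was -0.73 (-0.83 to -0.64). Its share of cells after thinning was 12.0% (11.2 to 12.9) in WT and 8.37% (7.65 to 9.14) in KO. Notch1 was thus lower in KO by a ratio close to that of Flt3.

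Satb1 (ENSMUSG00000023927, chr17:51736187-51833290), a chromatin organizer with a role in the lymphoid output of stem cells, had 51.7 CPM (50.5 to 52.9) in WT against 35.3 CPM (34.4 to 36.3) in KO. Its log2 ratio of -0.55 (-0.60 to -0.50) was just short of 1.5-fold. The share of cells with Satb1 was 31.5% in WT and 27.3% in KO after thinning, but 53.4% and 53.3% without it. The order of the Satb1 shares thus showed at equal depth and not in the cells as sequenced, of which those of KO were the deeper.

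Lsp1 (ENSMUSG00000018819, chr7:142460809-142494867), a leukocyte protein that binds F-actin, had 67.0 CPM (65.6 to 68.3) in WT against 40.6 CPM (39.6 to 41.6) in KO. Its log2 ratio was -0.72 (-0.77 to -0.68). It was detected in 45.3% (43.9 to 46.6) of WT and 33.4% (32.2 to 34.7) of KO cells after thinning. Lsp1 and Flt3 thus shared nearly the same ratio.

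Dntt (ENSMUSG00000025014, chr19:41029275-41059525) encodes terminal transferase, which adds untemplated nucleotides at the joints of antigen receptor genes. It had 67.9 CPM (66.5 to 69.2) in WT against 14.2 CPM (13.6 to 14.8) in KO, a log2 ratio of -2.26 (-2.33 to -2.19). Its share of cells moved less than its level, from 15.3% (14.3 to 16.3) in WT to 9.14% (8.39 to 9.94) in KO. Before thinning, the 5% of cells with most Dntt UMIs held 77.5% of them in WT and 70.2% in KO. The same measure gave 27.0% and 26.7% for Flt3, so Dntt was the more concentrated of the pair. These shares were not taken at equal depth.

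Rag1 (ENSMUSG00000061311, chr2:101638282-101649501), the recombinase that cuts antigen receptor genes, was close to absent. It had 5 UMIs in WT against 1 UMI in KO, a log2 ratio of -2.52 with an interval from -8.08 to 0.64 that held 0. Of the 5 WT UMIs, 3 were in the lymphoid-gated cells described next. No difference in Rag1 was detectable at this depth.

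To ask whether these ratios followed the composition of the libraries, the genes were measured within each marker-gated group. The lymphoid-gated group was taken from Ighm, Il12a, Blnk, Cnn3, Tcf4, Arpp21, Ly6d and Mef2c, and held 475 WT cells (8.86%, 8.11 to 9.65) and 210 KO cells (3.85%, 3.35 to 4.39). With Ighm left out of the score, an alternative chosen after the data were seen, it held 316 WT and 180 KO cells. The difference in size between the libraries thus depended in part on Ighm. The lymphoid-gated group is a range of a score and not a cell type, and 681 WT and 422 KO cells of all groups had a lymphoid score within 1.25-fold of the limit. The gate genes themselves were unequal within the group: Il12a stood at 129 and 131 CPM and Mef2c at 483 and 562 CPM in WT and KO, but Ighm at 213 and 70.1 CPM and Arpp21 at 21.3 and 2.04 CPM. The median granule score in these cells was 10.5 UMIs per 10000 in WT and 15.6 in KO, whereas their innate lymphoid score had a median of 0 in both. Cells that passed no lineage gate were split into cycling ungated cells (886 in WT, 507 in KO) and non-cycling ungated cells (1039 and 837). The megakaryocyte group (194 and 211 cells, median depth 17249 and 13298 UMIs) served as the background for all of the genes but Lsp1, which it held in 29.9% and 19.4% of cells.

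Flt3 was highest in the lymphoid-gated cells, at 149 CPM (142 to 157) in WT against 110.3 CPM (98.6 to 123) in KO, a log2 ratio of -0.44 (-0.62 to -0.26). It stood at 62.5 and 60.5 CPM in cycling ungated, 60.1 and 68.1 CPM in non-cycling ungated and 46.3 and 53.0 CPM in HSC-gated cells of WT and KO. It was lower in granule cells, at 25.6 and 19.95 CPM, and lowest in basophil/mast cells at 8.85 and 12.0 CPM and in megakaryocyte cells at 6.34 and 5.45 CPM. By their intervals the cycling and non-cycling ungated cells did not differ within either library, the HSC-gated cells of WT lay below both, and basophil/mast and megakaryocyte cells overlapped in WT but not in KO. A Flt3 UMI was found in 60.4% of WT and 55.2% of KO lymphoid-gated cells (median depth 16841 and 11951 UMIs), against 4.12% and 3.79% of megakaryocyte cells. The ratio of KO to WT within each of these groups was thus smaller in size than the 1.65-fold over all cells, and in cycling ungated cells its interval (-0.18 to 0.08 on the log2 scale) held 0.

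Satb1 followed a similar order. In lymphoid-gated cells it had 147 CPM in WT against 130.04 CPM in KO (log2 ratio -0.18, -0.34 to -0.01), and in cycling ungated cells 70.2 and 66.5 CPM. In HSC-gated cells it was higher in KO, at 67.9 against 45.2 CPM (log2 ratio 0.59, 0.39 to 0.78), as it was in non-cycling ungated cells at 73.2 against 61.2 CPM. The HSC-gated share of cells with Satb1 was 40.5% (35.1 to 46.1) in KO and 27.6% (25.4 to 29.9) in WT. Satb1 was thus higher, not lower, in the HSC-gated and non-cycling ungated cells of KO.

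Lsp1 differed little within the larger groups. Its lymphoid-gated level was 136 CPM in WT against 140 CPM in KO (log2 ratio 0.04, -0.12 to 0.20), and its non-cycling ungated level was 109.5 and 108 CPM. In HSC-gated cells it had 91.5 CPM in WT against 104 CPM in KO, and in granule cells 29.1 and 26.1 CPM. The contrast between granule cells and the other progenitors was larger in both libraries than the contrast between WT and KO in any of these 4 groups.

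Dntt behaved differently. In lymphoid-gated cells it stood at 634 CPM (618 to 651) in WT against 168 CPM (154 to 184) in KO, a log2 ratio of -1.92 (-2.05 to -1.78). In non-cycling ungated cells it was 61.1 and 58.1 CPM (log2 ratio -0.07, -0.21 to 0.07) and in cycling ungated cells 48.1 and 39.8 CPM. In HSC-gated cells it was higher in KO, at 27.2 against 18.9 CPM (log2 ratio 0.53, 0.22 to 0.83), with shares of 9.97% and 9.20% whose intervals overlapped. In granule cells it was 8.42 CPM in WT against 3.06 CPM in KO, and in megakaryocyte cells it was at 1.58 and 2.12 CPM. A Dntt UMI was found in 54.3% of WT and 39.5% of KO lymphoid-gated cells, against 1.03% and 0.474% of megakaryocyte cells. The lymphoid-gated group held 64.0% of all Dntt UMIs of the WT library and 22.0% of those of the KO library. Most WT Dntt UMIs thus lay in this group and most KO ones outside it. The group itself was smaller in KO. Counting every gene, its cells contributed 6.84% of the WT library's UMIs but 1.85% of the KO library's. Relative to this size, Dntt was concentrated in the lymphoid-gated group in both libraries. The log2 ratio within the gate depended on its limits, from -1.25 with all limits halved to -3.44 with all doubled, and was lower in KO at each. Dntt UMIs were unevenly held, with up to 136 in 1 WT lymphoid-gated cell. The intervals of Dntt levels and ratios, here and over all cells, treat UMIs as independent and are too narrow.

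Notch1 was lower in KO within all 7 groups of at least 50 cells in both libraries, although the interval held 0 in basophil/mast and megakaryocyte cells. In lymphoid-gated cells it had 53.0 CPM (48.5 to 57.9) in WT against 15.3 CPM (11.2 to 20.5) in KO, a log2 ratio of -1.79 (-2.26 to -1.35). In cycling ungated cells it had 16.0 and 9.30 CPM, in granule cells 15.4 and 10.4 CPM, and in HSC-gated cells 13.7 and 8.27 CPM. In WT the lymphoid-gated level of Notch1 stood above every other of these groups. In KO its interval overlapped those of basophil/mast cells at 13.3 CPM (10.6 to 16.6) and non-cycling ungated cells at 12.0 CPM (10.1 to 14.1). Its lower bound of 11.17 CPM also lay just under the upper bounds of HSC-gated (11.56 CPM) and cycling ungated cells (11.19 CPM) of KO. Only the granule and megakaryocyte cells of KO lay below it by their intervals.

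Il7r in the lymphoid-gated cells was opposite to Il7r in the library as a whole. It had 225 UMIs there in WT, or 23.8 CPM (20.8 to 27.1), and 13 UMIs in KO, or 4.43 CPM (2.36 to 7.57), a log2 ratio of -2.43 (-3.36 to -1.62). The 13 KO UMIs were all in 1 cell, so the interval, which treats UMIs as independent, is too narrow for this gene. It was detected in 36 of 475 WT cells and in 1 of 210 KO cells of this group after thinning. In basophil/mast cells Il7r stood at 24.4 CPM in WT against 55.6 CPM in KO. In HSC-gated cells it had 4 UMIs in WT and 0 in KO. Granule cells of KO held 474 Il7r UMIs (4.22 CPM, 3.85 to 4.62), with up to 25 in a cell and 19.2% of all Il7r UMIs of the library, against 6 UMIs (1.82 CPM, 0.667 to 3.96) in KO megakaryocyte cells. The share of cells with Il7r was 1.22% in granule and 1.90% in megakaryocyte cells after thinning, and 2.83% and 2.37% before it, so level and share gave different orders and none was read from the shares.

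The members past 1.5-fold in each group stand beside the share of all genes with a mean of 10 CPM there that were. In lymphoid-gated cells 3 of 6 members (Dntt, Notch1 and Il7r) were lower in KO and 0 were higher, against 5.1% of 7903 genes lower and 4.75% higher. In HSC-gated cells 1 of 5 (Notch1) was lower and 1 (Satb1, at the limit) was higher, against 4.27% and 2.97%. In cycling ungated cells 1 of 5 (Notch1) was lower and 0 were higher, against 1.54% and 1.77%, and in non-cycling ungated cells 0 of 5 passed in either direction, against 2.06% and 2.56%. In granule cells 0 of 4 passed, against 1.91% lower and 2.72% higher. In basophil/mast cells 0 of 5 were lower and 1 (Il7r) was higher, against 5.55% and 8.1%, and in megakaryocyte cells the 1 member measured (Lsp1) was lower, against 5.67% lower and 3.3% higher. Il7r in lymphoid-gated cells, and Notch1 in HSC-gated and cycling ungated cells, reached the minimum only through WT, where they were high, so these counts support nothing by themselves. Ccr9 had 15 UMIs in WT and 0 in KO there, where the interval of a count of 0 reaches 1.26 CPM.

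**Figure D2:**
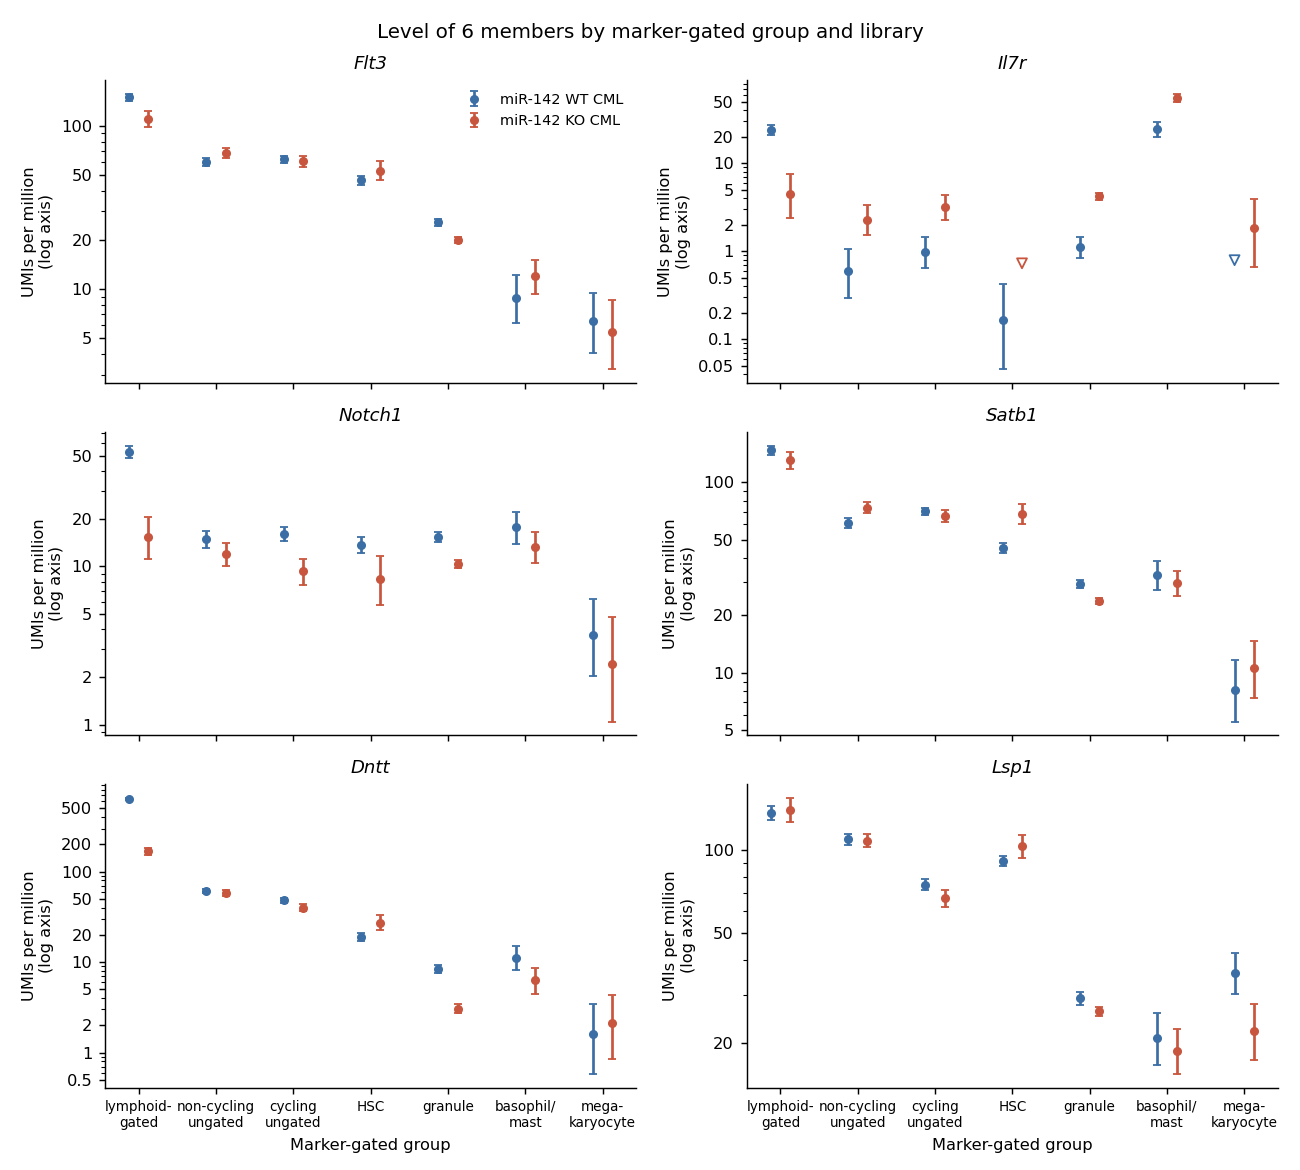
Level of Flt3, Il7r, Notch1, Satb1, Dntt and Lsp1 in 7 marker-gated groups (x axis), as CPM on a log axis, in WT (blue) and KO (red) cells, with exact Poisson 95% intervals. Open triangles mark groups with 0 UMIs at the level that 3 UMIs would give. Flt3, Satb1 and Lsp1 lie close together in WT and KO in most groups, while Dntt, Notch1 and Il7r of the lymphoid-gated cells lie well above in WT.

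The same question was put to the libraries by giving both of them the mean composition over the 10 groups that held cells in each. The log2 ratio then moved from -0.72 to -0.10 for Flt3, from -0.55 to -0.08 for Satb1 and from -0.72 to -0.08 for Lsp1. It moved from -2.26 to -1.02 for Dntt, and stayed at -0.72 for Notch1, which had been -0.73. For Il7r it moved from 2.08 to -0.06, and for Ccr9 from 3.29 to 0.43. With 1 composition for both libraries the ratios of Flt3, Satb1, Lsp1 and Il7r thus lay between -0.10 and -0.06, whereas Notch1 and Dntt were still lower in KO. The weighted WT values of Il7r and Ccr9 rested on 9 innate lymphoid-gated cells with 68 Il7r UMIs and 10 Ccr9 UMIs.

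**Figure D3:**
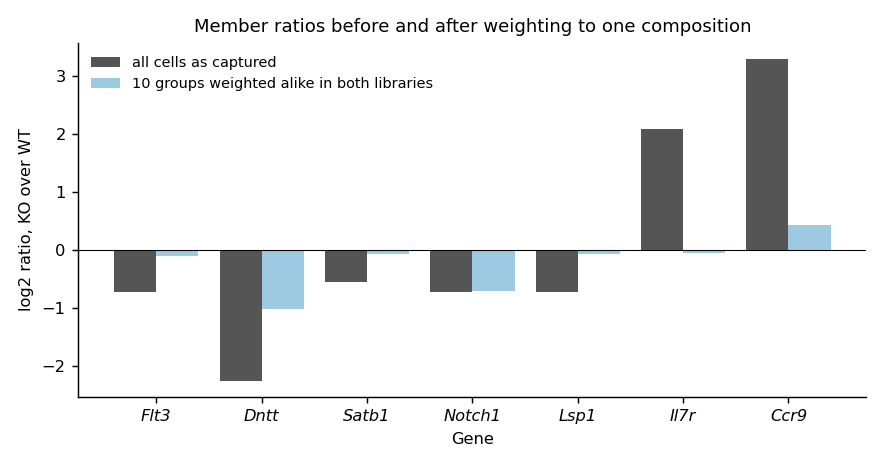
Log2 ratio of KO over WT (y axis) for 7 of the genes, over all cells as captured (dark bars) and after both libraries were weighted to the same composition over 10 marker-gated groups (light bars). The bars of Flt3, Satb1, Lsp1 and Il7r shrink to between -0.10 and -0.06, whereas Notch1 stays at -0.72 and Dntt at -1.02.

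The difference in Dntt was then followed from cell to cell. At least 5 Dntt UMIs after thinning were held by 194 WT cells (3.62%, 3.13 to 4.15) and by 40 KO cells (0.733%, 0.524 to 0.997). At least 10 were held by 95 WT cells (1.77%, 1.44 to 2.16) and 10 KO cells (0.183%, 0.0879 to 0.337). The cell with most Dntt held 48 thinned UMIs in WT and 17 in KO. Cells with 1 UMI numbered 395 in WT and 302 in KO, so the libraries were much closer at the low end than at the high end.

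**Figure D4:**
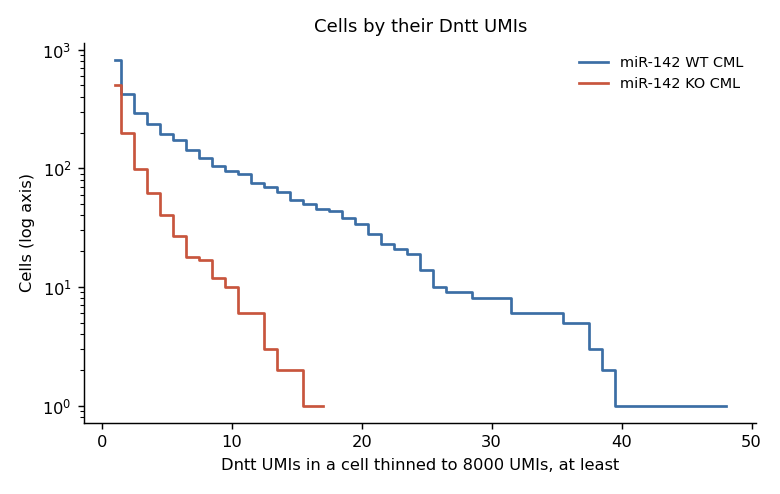
Number of cells (y axis, log) that held at least a given number of Dntt UMIs (x axis) after each cell was thinned to 8000 UMIs, in the WT (blue) and KO (red) library. The curves start at 819 and 499 cells and part toward the right, with 95 and 10 cells at 10 or more UMIs and the last cell at 48 and 17 UMIs.

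The cells with at least 5 Dntt UMIs were lymphoid-gated in 74.7% of cases in WT and 47.5% in KO. In WT they carried Flt3 in 69.1% (62.1 to 75.5), Satb1 in 75.3% (68.6 to 81.2) and Lsp1 in 73.7% (66.9 to 79.8) of cells. In KO the corresponding shares were 67.5% (50.9 to 81.4), 70.0% (53.5 to 83.4) and 80.0% (64.4 to 90.9), and these intervals overlapped those of WT. Notch1 was found in 40.7% (33.7 to 48.0) of the WT cells and in 8 of the 40 KO cells with high Dntt (interval 9.05% to 35.6%). Il7r was found in 34 of the 194 WT cells (17.5%, 12.5 to 23.6) and in 0 of the 40 KO cells (upper bound 8.81%). The shares of Flt3, Satb1 and Lsp1 thus did not differ beyond their intervals, and no KO cell with high Dntt held Il7r. Ly6d, which marks lymphoid progenitors on the way to the B lineage, had 31.7 CPM in these WT cells and 0 in the KO cells. Il12a had 163 and 114 CPM and Mef2c 409 and 332 CPM in them. The high limit of Dntt was itself a value of these cells, so these shares describe them and test nothing.

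Joint detection was counted after thinning and set beside the product of the single shares, which is what independent detection would give. Flt3 and Dntt were found together in 471 WT cells (8.78%, 8.04 to 9.57) against 4.70% under independence, a ratio of 1.87. In KO they were found together in 250 cells (4.58%, 4.04 to 5.17) against 2.16%, a ratio of 2.12. Of the cells with Dntt, 57.5% in WT and 50.1% in KO also had Flt3, whereas Dntt was in 9.38% of WT and 5.98% of KO cells without Flt3. Flt3 and Dntt were thus found together more often than their shares give in both libraries.

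Dntt and Satb1 went together at 1.83 times the independent share in WT and 1.87 times in KO, and Flt3 and Satb1 at 1.44 and 1.496 times. Dntt and Notch1 went together at 1.72 and 1.56 times, and Flt3 and Lsp1 at 1.24 and 1.41 times. Pairs with Il7r were mixed. In WT Dntt and Il7r were found together in 43 cells against 15.9 expected, a ratio of 2.71, and in KO in 14 cells against 24.0 expected, a ratio of 0.584. Flt3 and Il7r also went from above to below independence, at 1.12 and 0.839 times, and Lsp1 and Il7r from 0.977 to 1.096 times, both nearer to 1 than Dntt and Il7r. Satb1 and Il7r went together at 1.80 times in WT and 1.47 times in KO. Within the lymphoid-gated cells, Flt3 and Dntt went together at 1.19 times the independent share in WT and 1.29 times in KO. These ratios were smaller than those over the whole library, but a ratio has less room above 1 where the single shares are high. In WT lymphoid-gated cells Flt3 was in 60.4% and Dntt in 54.3%, and both were in 39.2% against 32.8% under independence. The excess within the group was therefore not ranked against that of the library. Dntt and Il7r still went together at 1.79 times in WT lymphoid-gated cells, where 35 of the 36 cells with Il7r also held Dntt.

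All of Flt3, Dntt, Satb1 and Notch1 were found in 90 WT cells (1.68%, 1.35 to 2.06) and 23 KO cells (0.421%, 0.267 to 0.632). Lymphoid-gated were 65 of them in WT and 9 in KO. At least 5 of the 8 genes were found in 92 WT cells (1.72%, 1.39 to 2.10) and 25 KO cells (0.458%, 0.297 to 0.675). None of the 8 was found in 28.0% (26.8 to 29.2) of WT and 38.0% (36.7 to 39.3) of KO cells. Within the lymphoid-gated cells the mean number of genes found was 2.83 in WT and 2.34 in KO, and at least 5 were found in 14.9% (11.9 to 18.5) and 2.38% (0.777 to 5.47). In non-cycling ungated cells the means were 1.55 in WT and 1.72 in KO. Cells with at least 5 of the genes were thus rarer among the lymphoid-gated cells of KO, by more than the intervals.

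Because Il7r and Ccr9 went against the other genes, the cells that carried them were located. In WT, 104 cells held Il7r after thinning, of which 36 (34.6%) were lymphoid-gated, 37 were basophil/mast and 6 were innate lymphoid by their Gata3, Icos, Il1rl1, Rora, Il13, Areg, Klrg1 and Calca score. In KO, 262 cells held Il7r, of which 169 (64.5%) were innate lymphoid, 40 were basophil/mast, 35 were granule and 1 was lymphoid-gated. The innate lymphoid group as a whole had 9 cells in WT (0.168%, 0.0768 to 0.318) and 195 cells in KO (3.57%, 3.10 to 4.10). The Il7r cells of the 2 libraries thus lay in different groups.

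Gata3, Icos, Calca and Il1rl1 are genes of the innate lymphoid score. Their shares in the Il7r cells therefore restate the gate and give it no separate support, whereas Dntt and Flt3 are in no gate. Il1rl1 was found in 41.3% (31.8 to 51.4) of WT and 73.7% (67.9 to 78.9) of KO cells with Il7r. Gata3 was found in 13.5% (7.56 to 21.6) of WT and 67.9% (61.9 to 73.5) of KO cells with Il7r, and Icos in 7.69% (3.38 to 14.6) and 48.9% (42.7 to 55.1). Dntt was found in 41.3% (31.8 to 51.4) of the WT and 5.34% (2.95 to 8.80) of the KO cells with Il7r, and Flt3 in 34.6% (25.5 to 44.6) and 19.8% (15.2 to 25.2). Calca was in 15.4% of the WT and 72.5% of the KO cells. In KO, Gata3 was in 3.18% and Calca in 2.96% of cells without Il7r. Within the 195 innate lymphoid KO cells, Il7r stood at 322 CPM (306 to 338), and 86.7% of these cells held it. Flt3 in these cells stood at 37.8 CPM, Satb1 at 68.6 CPM, Lsp1 at 60.2 CPM, Notch1 at 13.1 CPM and Dntt at 9.65 CPM. Satb1 and Lsp1 were thus well detected in them, with Dntt near the bottom of the range.

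Ccr9 lay with Il7r in KO. Of the 79 KO cells with Ccr9, 71 (89.9%, 81.0 to 95.5) also held Il7r, against 3.79 cells expected under independence, and 62 were innate lymphoid-gated. In WT, 13 cells held Ccr9, of which 8 also held Il7r, 8 held Dntt, and 7 were lymphoid-gated. Free RNA from broken cells held Il7r at 14.7 CPM in KO and 3.90 CPM in WT, and Ccr9 at 4.99 and 0.476 CPM, as measured in barcodes of 10 to 100 UMIs. Its part in the low shares of other groups was not tested.

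**Figure D5:**
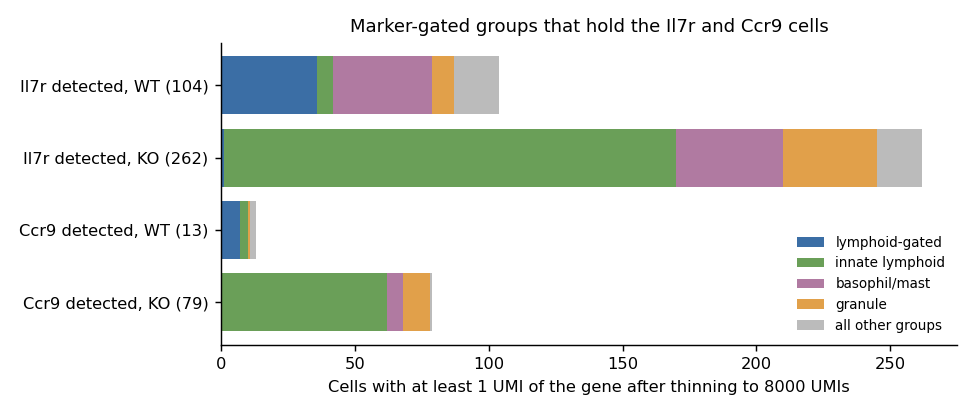
Number of cells with at least 1 UMI of Il7r or Ccr9 after thinning (x axis), split by marker-gated group (colours), for each library, with the total in parentheses. The KO bars are mostly innate lymphoid (169 of 262 Il7r cells and 62 of 79 Ccr9 cells), whereas the WT bars hold 36 and 7 lymphoid-gated cells.

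Without the innate lymphoid and basophil/mast groups, the Il7r ratio over the remaining cells was 0.61 on the log2 scale and the Ccr9 ratio was 1.87, while those of the other genes moved by less than their intervals. This alternative was chosen after the data were seen.

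The wider lymphoid program was read from a list of 85 genes by role, of which 49 had a mean of 10 CPM. At least 1.5-fold lower in KO were 11 of the 49 (22.4%), and at least 1.5-fold higher were 3 (6.12%), against 4.86% and 2.78% of all genes, with a median log2 ratio of -0.33 against -0.08 over all 7483 genes. Of the 11, Xrcc5 (13.2 CPM in WT, 6.89 CPM in KO) and Ighm (1040 and 6.78 CPM) reached the minimum only through WT. Their place in the count supports nothing by itself. Among 18 measured transcription factors, 6 were lower: Tcf4 at a log2 ratio of -0.72, Bcl11a (required for B lineage entry) at -0.995, Sox4 at -1.08, Zeb1 at -0.66, Zeb2 at -0.66 and Irf8 at -1.02. Higher were Id2, an inhibitor of E proteins, at 0.66 and the repressor Gfi1, also used in the granulocyte lineage, at 1.19. Ikzf1, Tcf3 and Mef2c stood at -0.41, -0.30 and -0.39. The ratios of this list are over all cells and were not weighted to 1 composition. In lymphoid-gated cells of WT and KO, Tcf4 (a gate gene) had 240 and 222 CPM, Bcl11a 179 and 133 CPM and Sox4 351 and 269 CPM. Zeb1 had 36.5 and 41.2 CPM there, Zeb2 112 and 70.5 CPM and Irf8 100 and 37.8 CPM.

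Of 6 measured Notch pathway genes, the coactivator Maml3 was lower at -0.75, while Notch2, the DNA-binding partner Rbpj and the glycosyltransferase Lfng stood at -0.33, -0.26 and -0.57. Among 15 cytokine and homing receptor genes, Il2rg, the common gamma chain that pairs with the interleukin-7 receptor, was lower at -0.91 and the kinase bound to it, Jak3, at -0.64. Il6st and Cxcr4 stood at -0.48 and 0.06. Il2rg was thus lower in the library in which Il7r was higher. In lymphoid-gated cells of WT and KO, Il2rg had 58.8 and 46.0 CPM, Jak3 20.5 and 15.0 CPM and Maml3 77.0 and 50.7 CPM.

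Of 10 measured genes of recombination and antigen receptors, Xrcc5 (the Ku80 end-joining protein) was lower at -0.94 and Ighm at -7.26, and Cd52, a leukocyte surface antigen, was higher at 0.60. Xrcc6, Prkdc and Cd79b stood at -0.34, -0.33 and -0.05. The Ighm gap, from 1040 to 6.78 CPM, moved with 36 antibody-secreting cells in WT and 0 in KO, and the free RNA of WT held Ighm at 1936 CPM against 15.0 CPM. Without the antibody-secreting cells the 8 genes' ratios moved by less than their intervals.

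The genes most like Flt3 and Dntt were sought by the Pearson correlation of log2 CPM (with 1 CPM added) over the 15 groups of at least 50 cells in the 2 libraries, among 7483 genes. Closest to Flt3 were Arid5a (r = 0.97), Mgat1 (0.97), Wfdc17 (0.97), Casp8 (0.96) and Cd34 (0.95). Closest to Dntt were Mgat1 (0.93), Satb1 (0.91), Flt3 (0.90), Wfdc17 (0.90) and Gpr171 (0.89). Of the other members, Lsp1 had 0.90 with Flt3, Notch1 had 0.67, and Il7r had -0.03. The points share 2 libraries and the gates that split them, so the values are a description. Flt3, Dntt and Satb1 were thus close to each other over the groups, and Il7r was not close to them.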

How the data were processed

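LSK cells of 1 library per genotype were captured with a 10x Genomics 3′ v3.1 kit (about 8000 cells each). With Cell Ranger the authors made UMI counts per gene and barcode on mm10, deposited without normalization (version 6.1.2 per the labels, 4 per the file headers). The matrices were unfiltered, with 9216 WT and 7370 KO barcodes over the study's 300 UMIs. Here 8000 UMIs were required, which with the mitochondrial limit left 5363 and 5458 cells with 138183896 and 158438757 UMIs. Doublets were kept.

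Counts were summed per library or group and given as CPM. Intervals were exact (Poisson, Clopper-Pearson, conditional binomial). Marker groups were assigned in a fixed order from summed marker UMIs per 10000, with limits set after the score distributions were seen; 16.6% of WT and 16.8% of KO cells passed more than 1 lineage gate. The members and lists were chosen with earlier results of these data known. Named genes were the members, pathway genes past 1.5-fold with up to 3 others per role, and the 5 genes most like Flt3 and Dntt. UTRs and positions came from GENCODE M21 on GRCm38. Scripts (Python 3.11.15, scipy 1.17.1, scanpy 1.11.5) were tested on simulated data. Alternatives were other UMI, mitochondrial, thinning, gate, doublet and scaling choices.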

Additional observations from a re-analysis of the deposited data

Results flagged for a closer look

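Il7r was lower in KO lymphoid-gated cells (log2 ratio -2.43, with all 13 KO UMIs in 1 cell) and higher in KO basophil/mast cells (1.19, 0.86 to 1.52), so it stands out for opposite directions in 2 groups of cells. The difference between the groups was not tested, and the share of basophil/mast cells with Il7r went the other way, at 19.1% in WT and 14.3% in KO, so no order was read from it.

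Dntt was lower in KO lymphoid-gated cells (log2 ratio -1.92) and higher in KO HSC-gated cells (0.53, 0.22 to 0.83). The difference between the groups was not tested. Of the HSC scores, 926 in WT and 487 in KO lay within 1.25-fold of the limit.

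Barcodes of 1000 to 8000 UMIs were outside all comparisons (1295 in WT with a median of 3396 UMIs, 1253 in KO with a median of 5160 UMIs), and they held the members that were higher in KO at levels above those of the cells. Il7r stood at 631 CPM (611 to 651) in KO against 102 CPM (93.1 to 111) in WT, and was found in 45.6% and 15.8% of these barcodes. Ccr9 stood at 89.9 CPM (82.6 to 97.6) in KO against 6.48 CPM (4.46 to 9.10) in WT. Icos, an innate lymphoid gate marker, stood at 216 and 13.9 CPM beside them, and Gata3 at 309 and 46.3 CPM. Dntt stood at 8.99 CPM in KO and 45.5 CPM in WT, and Flt3 at 30.2 and 51.6 CPM, the order seen in the cells. Notch1 had that order too, at 17.5 and 21.6 CPM, but with intervals that overlapped. Satb1 had the opposite order to the cells, at 99.7 CPM (92.0 to 108) in KO against 75.0 CPM (67.6 to 82.9) in WT. So did Lsp1, at 93.6 and 84.6 CPM, with intervals that overlapped. Whether these barcodes are small cells or damaged ones was not tested.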

How the results depend on the processing

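Il7r and Satb1 turned direction under 1 alternative, equal composition of the marker-gated groups in both libraries: the Il7r log2 ratio went from 2.08 to -0.064, the Il7r share difference (KO minus WT, in percentage points) from 2.86 to -0.0328 and the Satb1 share difference from -4.18 to 1.68. Equal composition also moved Flt3 to -0.10 and Dntt to -1.02 (log2) and the Dntt share difference from -6.13 to -0.859. A minimum of 4000 UMIs gave 2.50 for the Il7r level, 6.52 for its share, -2.49 for the joint Flt3 and Dntt share (-4.20 as reported) and -24.2 for the Dntt share of Il7r cells (-36.0 as reported). A minimum of 16000 UMIs gave log2 ratios of -0.86 (Flt3), -2.71 (Dntt) and 1.94 (Il7r), -9.60 for the Dntt share and -6.21 for the joint share. No thinning gave -8.63 (Dntt share), 3.596 (Il7r share) and -7.65 (joint share). Size factors gave -0.65 (Flt3) and -2.18 (Dntt), and put 49.6% instead of 63.6% of all called genes on the lower side. Scrublet's automatic limit called 1 and 0 doublets and had not worked; removing the top scores (230 WT and 238 KO cells, among them 12.8% of the KO innate lymphoid cells) gave 1.87 for Il7r. Within the lymphoid gate, Dntt stood at -1.25 with limits halved (1510 and 573 cells) and -3.44 with limits doubled (52 and 7 cells), and Il7r at -4.55 with limits halved (237 and 3 UMIs); with limits doubled, or without Ighm, KO Il7r had 0 UMIs and no ratio was formed. With no CPM minimum 2 members were higher, and 25 pathway genes were lower and 12 higher, against 11 and 3 as reported; these are 29.4% and 14.1% of the list beside 28.5% and 12.1% of all genes, so without the minimum the list was close to the background. Among alternatives chosen after the data were seen, the lymphoid gate without Ighm gave -2.38 for Dntt, subtracting 20% free RNA gave -2.36 for Dntt, and leaving out innate lymphoid and basophil/mast cells gave 0.61 for Il7r. Where no construction above shows it, the cause was not tested. Other values stayed within their counting intervals, or counts within 1.5 times, in 36 cases for the main results and 69 for single genes, and by more, in the same direction, in 33 for single genes. With 1 library per group no replicate could be left out. No paired analysis was possible because each group has 1 library and no test was run. The limit of these data is that genotype, library and mouse cannot be told apart.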
